A study of Gallus gallus with 36 samples.

Results

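Receptors for noradrenaline, vasoactive intestinal peptide (VIP), pituitary adenylate cyclase-activating peptide (PACAP) and melatonin were followed over 6 circadian times in the chicken pineal gland and retina. They were taken by gene name from the deposited table of estimated counts: every transcript named ADRA2A, ADRA2C, ADRB1, VIPR1, VIPR2, ADCYAP1R1 or MEL1A. The names gave 8 transcripts of 23352 in all, from 6 of the 7 symbols, and VIPR2 was skipped because no transcript carries that name. The study sought transcripts whose RNA level follows the time of day. Chickens (Gallus gallus, Hyline) were obtained at 1 day of age, entrained over 9 days to 12 h light alternating with 12 h dark, and held without light on day 10, the day of sampling. Tissue came from circadian times (CT) 0, 4, 8, 12, 16 and 20. CT0 is the start of the subjective day, and no group was sampled in light or given a drug. The 12 groups differ in tissue and time, and with tissue also in pooling. Between the tissues, an effect of pooling cannot be told apart from one of tissue. A pineal library holds RNA of 3 pooled glands and a retina library that of 1 retina, and each of the 12 groups has 3 libraries, which makes 36.

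In birds the pineal gland is itself sensitive to light, holds a circadian clock and releases melatonin at night. Noradrenaline from sympathetic nerves is known to lower melatonin output in the chicken gland through alpha-2 adrenergic receptors, which couple to inhibitory G proteins and lower cyclic AMP, whereas in mammals it raises output mainly through beta receptors. VIP and PACAP act through class B receptors that couple to the stimulatory G protein and raise cyclic AMP, and both peptides are known to stimulate melatonin production in cultured chick pinealocytes. Melatonin receptors couple to inhibitory G proteins, and in the retina they receive melatonin made by the photoreceptors.

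Pineal libraries held 6583163 to 9434608 estimated counts and retina libraries 4994388 to 8122277. TPH1, whose enzyme starts the synthesis of serotonin, the precursor of melatonin, ran from 5680 to 29600 CPM (counts relative to a common library total, scaled between libraries) in pineal libraries and from 34.2 to 188 CPM in retina libraries. The summed level of 5 retinal photoreceptor markers ran from 510 to 1040 CPM in pineal and from 2830 to 5940 CPM in retina libraries. Both tissue labels were thus met by their markers. That the 3 libraries of a group were made from different birds is not stated, so the spread behind each p-value may be technical. In 3 pineal libraries (CT12 replicate 1, CT12 replicate 3 and CT20 replicate 1) the choroid plexus transcript TTR was at 980, 1320 and 1510 CPM, against 23000 to 44100 CPM in the other 15. In 3 pineal libraries (CT0 replicate 2, CT12 replicate 1 and CT20 replicate 1) the inhibitory neuron marker GAD67 was at 21.2 to 35.1 CPM, against 2.4 to 8.49 CPM in the other 15. Receptor calls that move without either set are given with and without it.

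The 8 transcripts were not all measured equally well. ADRA2C (ENSGALT00000025167, chromosome 4, 84590769 to 84591998), ADRA2A (ENSGALT00000039041, chromosome 6, 27694061 to 27694657), ADRB1 (ENSGALT00000014554, chromosome 6, 29115122 to 29116339), VIPR1 (ENSGALT00000008443, chromosome 2, 1662452 to 1729880) and ADCYAP1R1 (ENSGALT00000008391, chromosome 2, 1237089 to 1369982) passed the filter on low counts in both tissues. MEL1A (ENSGALT00000022097, chromosome 4, 63442645 to 63492251) passed in the retina and over both tissues together, but not in the pineal gland. A second ADRB1 transcript (ENSGALT00000030002) lies on another chromosome, 22, from 2278373 to 2279509, and had 4 counts over the 18 pineal libraries and 0 over the 18 retina libraries. A second ADRA2A transcript (ENSGALT00000039040) of 117 bases, from 27694232 to 27694348, lies inside the span of the first and had 1 estimated count, in pineal CT4 replicate 1. Its FPKM, the authors' value per transcript length and library size, was 74.6 in that library, so FPKM of so short a transcript was not used. Coordinates are those of the deposited table, and the sources used here do not give their genome build. Neither second transcript passed the filter, and ADRB1 and ADRA2A below mean the counted transcripts on chromosome 6.

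Compared per transcript length, ADRA2C, the alpha-2C adrenergic receptor, was by far the most abundant of the receptors in the pineal gland, at 261 ± 46.4 FPKM (mean ± SD, n = 18 libraries, range 193 to 335). ADRB1, the beta-1 adrenergic receptor, followed at 16.6 ± 2.93 FPKM (12.1 to 23.1) and ADRA2A, the alpha-2A receptor, at 15.1 ± 4.76 FPKM (7.21 to 25.2). The ranges of ADRB1 and ADRA2A overlapped over most of their width, so their order is not fixed by these libraries. The ADRA2A transcript spans only 597 bases, so its place by FPKM depends on that annotated length. In CPM it averaged 5.49, against 11.1 for ADRB1. VIPR1, a receptor for both VIP and PACAP, was at 4.64 ± 1.03 FPKM (2.29 to 6.19). ADCYAP1R1, the receptor selective for PACAP, had a median of 1.04 FPKM and a wide range of 0.276 to 10.5. MEL1A, the melatonin receptor that RefSeq names MTNR1A, was at 0 in 11 of 18 pineal libraries, with at most 0.367 FPKM.

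The order in the retina was different. ADRA2C at 14.7 ± 1.42 FPKM (11.9 to 17.4, n = 18) and VIPR1 at 13.7 ± 1.11 FPKM (12 to 15.6) lay side by side with overlapping ranges. ADCYAP1R1 at 7.1 ± 0.976 FPKM (5.34 to 8.79), ADRA2A at 6.95 ± 2.59 FPKM (1.61 to 10.9) and MEL1A at 6.52 ± 1.63 FPKM (4.08 to 10.3) came next and overlapped one another. In CPM, which is not scaled by length, ADRA2A averaged 2.92 and ADCYAP1R1 11.6. ADRB1 was lowest at 1.9 ± 0.682 FPKM (0.974 to 3.62).

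**Figure D1:**
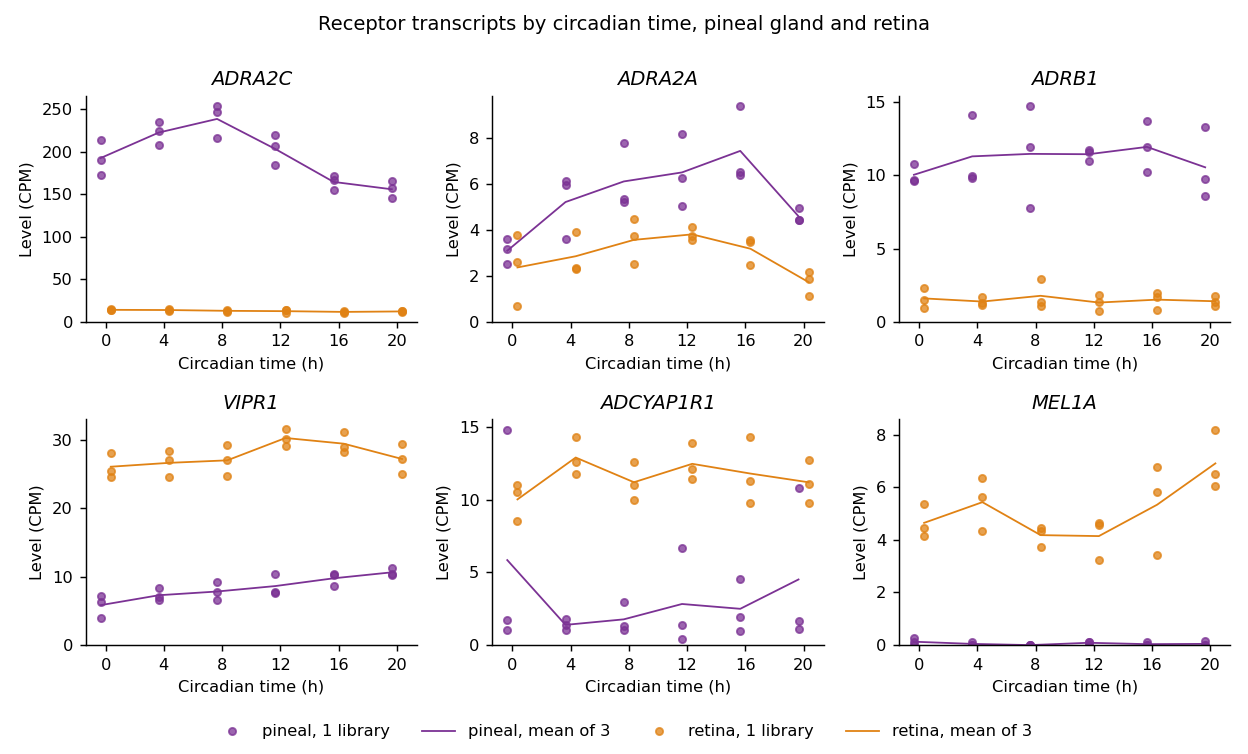
Level of each receptor transcript in CPM (y axis from 0, a different scale in each panel) against circadian time in hours; points are single libraries and lines join the means of 3 libraries, purple for pineal gland and orange for retina. ADRA2C and ADRB1 lie higher in every pineal library than in any retina library, which held for 21.7% of all transcripts tested. VIPR1 lies lower in every pineal library, which held for 20.3%. MEL1A also lies lower, but it passed the filter on low counts only through the retina, so this is a description.

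The first comparison asked whether the receptors followed a 24 h curve in the pineal gland. Among the adrenergic receptors, ADRA2C and ADRA2A did, with fitted peaks in the middle and at the end of the subjective day, while ADRB1 did not pass the test. Those were 2 of 5 receptor transcripts tested at an adjusted p of 0.05 (edgeR, quasi-likelihood), where 21.1% of all 16070 transcripts tested passed. A count of 2 among 5 does not set the receptors apart from that background.

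ADRA2C in the 3 pineal libraries of each time was at 190, 173 and 214 CPM at CT0, 224, 235 and 208 CPM at CT4, 246, 253 and 216 CPM at CT8, 206, 184 and 219 CPM at CT12, 171, 167 and 155 CPM at CT16, and 145, 165 and 157 CPM at CT20. All 6 libraries of CT16 and CT20 were lower than each of the other 12 libraries, and all 6 of CT4 and CT8 were at or above 208 CPM. The fitted curve peaked at CT6.74 ± 0.45 h (SE) with an amplitude, the distance from mean to peak, of 0.30 ± 0.04 in log2 units. That is a 1.52-fold range from trough to peak, at an adjusted p of 1.8e-05 in edgeR's quasi-likelihood test. Between 1090 and 1996 counts per library stood behind these levels, the most of any receptor described.

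ADRA2A had far fewer counts, 20 to 66 per pineal library. Its levels were 3.17, 2.51 and 3.6 CPM at CT0, 5.94, 3.59 and 6.11 CPM at CT4, 7.77, 5.34 and 5.22 CPM at CT8, 8.19, 5.06 and 6.26 CPM at CT12, 6.4, 6.53 and 9.39 CPM at CT16, and 4.42, 4.42 and 4.94 CPM at CT20. The CT0 libraries were the lowest, touching only 1 library of CT4, and the CT8, CT12 and CT16 libraries overlapped one another. The curve peaked at CT12.34 ± 0.87 h with an amplitude of 0.48 ± 0.11 in log2 units and a 1.96-fold range, at an adjusted p of 0.0147 in edgeR's quasi-likelihood test. Without the 3 libraries high in GAD67 the adjusted p was 0.122, and without the 3 low in TTR it was 0.0598, so the call ended in both cases; all 18 removals of a single library kept it. The part of those libraries' other cell content in the result was not tested.

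ADRB1, which couples to the stimulatory G protein, was flat within its spread: its 18 pineal libraries ran from 7.77 to 14.7 CPM with a median of 10.9 CPM. At each time the means stood between 10 ± 0.664 CPM (CT0) and 11.9 ± 1.71 CPM (CT16, n = 3 each). The fitted amplitude was 0.10 ± 0.08 in log2 units at an adjusted p of 0.688 in edgeR's quasi-likelihood test.

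VIPR1 was at 7.22, 4.02 and 6.26 CPM at CT0, 8.3, 7.04 and 6.52 CPM at CT4, 9.24, 6.55 and 7.7 CPM at CT8, 7.65, 10.4 and 7.83 CPM at CT12, 10.2, 10.4 and 8.68 CPM at CT16, and 10.2, 11.3 and 10.4 CPM at CT20. The means increased from 5.83 ± 1.65 CPM at CT0 to 10.6 ± 0.629 CPM at CT20, and no CT0 library overlapped any of CT16 or CT20. The test of a 24 h curve gave an amplitude of 0.31 ± 0.10 in log2 units, a fitted peak at CT15.54 ± 1.19 h and an adjusted p of 0.067 in edgeR's quasi-likelihood test, just beyond the threshold. DESeq2 put the same counts inside it, at an adjusted p of 0.0252.

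ADCYAP1R1 behaved unlike the others, with 3 libraries far above the rest. Its levels were 14.8 CPM in CT0 replicate 2, 10.8 CPM in CT20 replicate 1 and 6.71 CPM in CT12 replicate 1, and the other 15 ran from 0.391 to 4.57 CPM with a mean of 1.61 ± 1 CPM (SD). Those were the same 3 libraries in which GAD67 was highest, and the next highest of both transcripts was also a shared library, CT16 replicate 2, at 4.57 CPM of ADCYAP1R1 and 8.49 CPM of GAD67. All 8 neuron markers found had counts in every pineal library, and their summed level in the 3 libraries was 381, 384 and 484 CPM, within or above the 245 to 413 CPM of the other 15. The part of neurons or of other tissue in the ADCYAP1R1 level was not tested; a 24 h curve gave an adjusted p of 0.432 in edgeR's quasi-likelihood test.

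**Figure D2:**
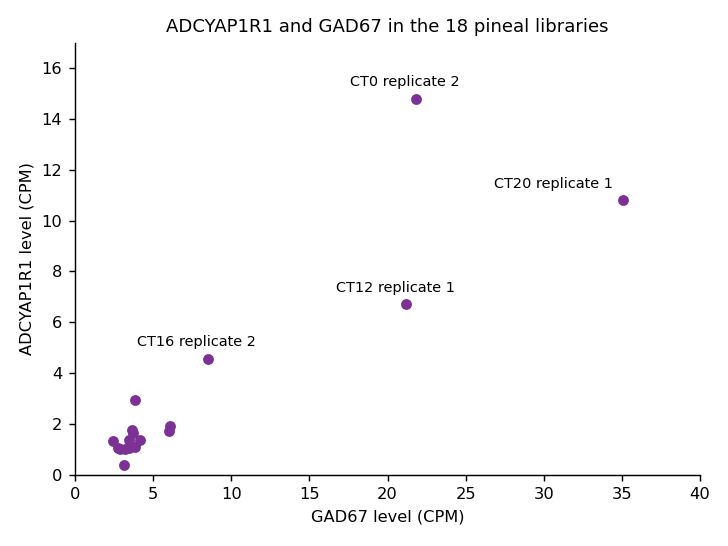
Level of ADCYAP1R1 (y axis, CPM) against that of GAD67 (x axis, CPM) in the 18 pineal libraries, 1 point each. The 3 libraries above 6 CPM of ADCYAP1R1 are the 3 above 20 CPM of GAD67, and the other 15 gather near the origin.

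MEL1A did not pass the filter on low counts in the pineal gland. It had 8 counts in all, 2 in CT0 replicate 1 and 1 in each of 6 other libraries, and none at CT8. At this depth a daily pattern was not detectable, whether present or absent.

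Setting night (CT16 and CT20) against day (CT4 and CT8) gave calls for 2 of 5 pineal receptor transcripts, ADRA2C lower and VIPR1 higher at night, where 15% of all transcripts tested passed (8.36% higher and 6.66% lower). ADRA2C fell by 0.52 ± 0.06 on the log2 scale, 1.43-fold, at an adjusted p of 5.0e-05 in edgeR's quasi-likelihood test. All 6 night libraries (145 to 171 CPM) were below all 6 day libraries (208 to 253 CPM), which held for 3.1% of all transcripts tested. With CT12 counted as night and CT0 as day, the difference was -0.32 at an adjusted p of 3.8e-04.

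VIPR1 was higher at night by 0.44 ± 0.14 on the log2 scale, 1.36-fold, at an adjusted p of 0.0486 in edgeR's quasi-likelihood test. Of its 6 night libraries (8.68 to 11.3 CPM), 5 were above every day library (6.52 to 9.24 CPM), and a full separation in this direction was seen for 3.68% of all transcripts tested. That call was marginal: it was lost in 13 of 18 removals of a single library, where edgeR's adjusted p reached 0.0541 to 0.117 (it was kept only without CT0 replicate 1, CT0 replicate 2, CT4 replicate 1, CT8 replicate 1 or CT12 replicate 2), and under 6 of 11 other settings, although the difference stayed positive in all of them. ADRA2A (0.06 ± 0.18), ADRB1 (-0.01 ± 0.15) and ADCYAP1R1 (1.10 ± 0.80) did not pass. For ADCYAP1R1 the difference was 0.24 without the 3 libraries high in GAD67, of which 1 is a night library. Those 3 are also its own highest libraries, so this shift follows from the choice of libraries. The median night minus day difference of the 5 receptors was 0.06 in log2 units, beside 0 over all transcripts tested.

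**Figure D3:**
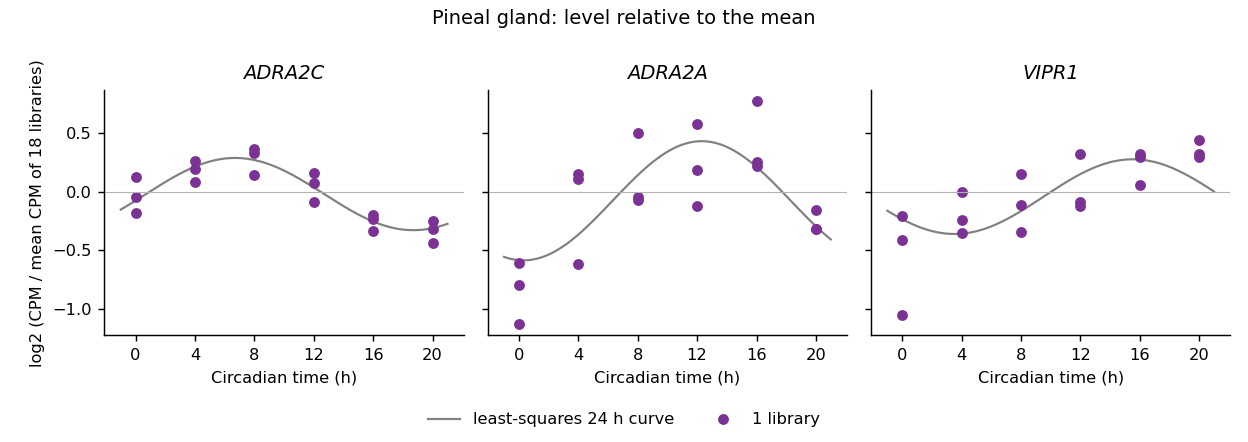
Pineal level relative to the mean of the 18 libraries (y axis, log2 of CPM over mean CPM) against circadian time in hours for ADRA2C, ADRA2A and VIPR1; points are single libraries and the grey line is a least-squares 24 h curve through the points. ADRA2C peaks near CT6.74 and ADRA2A near CT12.34, while VIPR1 is highest at CT20, later than its fitted peak.

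In the retina none of 6 receptor transcripts passed the test of a 24 h curve with edgeR, where 6.29% of all 14956 transcripts tested did. At an unadjusted p under 0.05 there were 2, VIPR1 and ADRA2A, and DESeq2 and limma called 0 as well. ADRA2A had the largest amplitude, 0.52 ± 0.16 in log2 units with a fitted peak at CT10.3 ± 1.21 h and an adjusted p of 0.276 in edgeR's quasi-likelihood test. With 5 to 28 counts per library, its levels were 2.62, 0.688 and 3.79 CPM at CT0, 2.32, 3.93 and 2.31 CPM at CT4, 4.47, 3.72 and 2.51 CPM at CT8, 4.13, 3.74 and 3.55 CPM at CT12, 3.58, 3.47 and 2.49 CPM at CT16, and 1.87, 1.12 and 2.18 CPM at CT20. The 3 libraries of CT20 lay below all of CT8, CT12 and CT16, and those of CT0 spanned almost the whole range.

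Retinal VIPR1 was at 28.1, 24.6 and 25.5 CPM at CT0, 28.4, 27 and 24.5 CPM at CT4, 29.3, 24.7 and 27 CPM at CT8, 31.6, 30.1 and 29.1 CPM at CT12, 28.2, 29 and 31.1 CPM at CT16, and 25, 27.2 and 29.4 CPM at CT20. The whole range, 24.5 to 31.6 CPM, was narrow, and CT12 had the highest mean but overlapped CT8, CT16 and CT20. Its amplitude was 0.11 ± 0.03 in log2 units at an adjusted p of 0.162 in edgeR's quasi-likelihood test.

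MEL1A, the receptor for melatonin itself, was at 4.13, 5.37 and 4.44 CPM at CT0, 4.34, 5.62 and 6.34 CPM at CT4, 4.47, 3.72 and 4.35 CPM at CT8, 3.24, 4.64 and 4.55 CPM at CT12, 6.76, 5.83 and 3.42 CPM at CT16, and 8.17, 6.49 and 6.06 CPM at CT20. CT20 lay above CT0, CT8 and CT12 in every library but overlapped CT4 and CT16. The amplitude of 0.25 ± 0.10 in log2 units, with a fitted peak at CT20.97 ± 1.57 h, had an adjusted p of 0.343 in edgeR's quasi-likelihood test.

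The other 3 varied little or within their spread in the retina. ADRA2C ran from 10.4 to 15.4 CPM with a median of 12.7 CPM and an adjusted p of 0.37, ADCYAP1R1 from 8.56 to 14.3 CPM with a median of 11.4 CPM and an adjusted p of 0.76, and ADRB1 from 0.737 to 2.91 CPM with a median of 1.35 CPM and an adjusted p of 0.982, all from edgeR's quasi-likelihood test. None of 6 was called between night and day in the retina with edgeR, where 0.762% of all transcripts tested were (0.281% higher and 0.481% lower), and 0 had an unadjusted p under 0.05. DESeq2, which gave 4 of them an adjusted p, and limma also called 0. MEL1A had a night minus day difference of 0.34 ± 0.17 on the log2 scale and ADRA2A one of -0.45 ± 0.32, and the median of the 6 was -0.09, beside 0 over all transcripts tested.

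Whether the daily curves differed between the tissues was tested as an interaction over all 36 libraries, which 12.1% of 16831 transcripts passed. ADRA2C passed, at an adjusted p of 0.00446 in edgeR's quasi-likelihood test, and was 1 of 6 receptor transcripts to do so. Its retinal curve had an amplitude of 0.12 ± 0.04 in log2 units and a fitted peak at CT3.22 ± 1.22 h, against 0.30 ± 0.04 at CT6.74 in the pineal gland. The ADRA2A curves, at 0.48 ± 0.11 and 0.52 ± 0.16 in log2 units, had an adjusted p of 0.673 for their difference, and VIPR1 had 0.295. That these 2 missed the threshold does not show that their curves were alike. MEL1A, also among the 6, passed the filter only through the retina. With 8 counts over the pineal libraries, its test could not decide whether the curves differ.

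The pineal gland was then set against the retina over all times. Of the 5 receptor transcripts that passed the filter on low counts within each tissue, 5 differed, where 82.7% of all transcripts tested did (43.2% higher and 39.5% lower in the pineal gland), so that the count itself says little. Here and below, these shares are over all 16831 transcripts tested, including those that passed the filter through a single tissue. They are thus not limited in the way the receptor and marker counts are. The 3 adrenergic receptors were higher in the pineal gland, and VIPR1 and ADCYAP1R1 were higher in the retina. The median difference of the 5 was 0.91 in log2 units, beside 0.04 over all transcripts tested. MEL1A passed the filter only through the retina, where it is high, so its difference is given as a description. In bulk tissue, fewer cells of a type and less RNA per cell cannot be told apart.

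ADRA2C ran from 145 to 253 CPM in pineal and from 10.4 to 15.4 CPM in retina libraries, a log2 difference of 3.92 ± 0.04, 15.1-fold, at an adjusted p of 2.5e-32 in edgeR's quasi-likelihood test. ADRB1 ran from 7.77 to 14.7 CPM in pineal and from 0.737 to 2.91 CPM in retina libraries, a log2 difference of 2.89 ± 0.14, 7.41-fold, at an adjusted p of 3.8e-17. For both, all 18 pineal libraries were above all 18 retina libraries, which held for 21.7% of all transcripts tested. ADRA2A differed less, by 0.91 ± 0.15 or 1.88-fold, from 2.51 to 9.39 CPM in pineal and from 0.688 to 4.47 CPM in retina libraries, at an adjusted p of 2.5e-06 in edgeR's quasi-likelihood test. Of its 18 pineal libraries, 12 were above every retina library.

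VIPR1 was lower in the pineal gland, with a log2 difference of -1.76 ± 0.06, 3.39-fold, and 4.02 to 11.3 CPM against 24.5 to 31.6 CPM and an adjusted p of 1.2e-20 in edgeR's quasi-likelihood test. ADCYAP1R1 differed by -2.05 ± 0.32, 4.15-fold, at an adjusted p of 1.5e-06. Only 16 of its 18 pineal libraries lay below the lowest retina library (8.56 CPM), since CT0 replicate 2 and CT20 replicate 1 did not. Without the 3 pineal libraries high in GAD67 the difference was -2.97. Those are also the 3 pineal libraries highest in ADCYAP1R1, so this shift follows from the choice of libraries. MEL1A had 8 counts over the pineal libraries and 596 over the retina libraries, and its fitted difference of -6.35 in log2 units depends on the prior count that the fit adds. VIPR1 was below every retina library in all 18 pineal libraries, which held for 20.3% of all transcripts tested. The same separation of MEL1A is a description only, since it passed the filter only through the retina.

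Cell markers differed between the tissues in the same comparison. Of the markers that passed the filter within each tissue, 5 of 5 of choroid plexus and ependyma and 5 of 6 of endothelium and pericytes were higher in the pineal gland, where 43.2% of all transcripts tested were. Lower were 7 of 7 neuron and 5 of 6 glia markers, where 39.5% of all transcripts tested were. Of 7 lymphocyte markers, 6 passed the filter only through the pineal gland, where they are high. The choroid plexus and ependyma markers, of which TTR is one, summed to 1130 to 44500 CPM in pineal and 125 to 297 CPM in retina libraries. The summed levels of the others were 89.6 to 360 CPM in pineal against 0.68 to 5.11 CPM in retina libraries for lymphocytes, 775 to 1090 against 293 to 352 CPM for endothelium and pericytes, 245 to 484 against 3880 to 4650 CPM for neurons, and 436 to 1030 against 4190 to 5270 CPM for glia. Most of the retinal sum for endothelium and pericytes was KDR, at 273 to 322 CPM against 80.7 to 94 CPM in pineal libraries. KDR was the 1 of those 6 markers that was lower in the pineal gland, so the summed levels understate the difference of the others. The part of any of these cell types in the receptor differences was not tested.

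**Figure D4:**
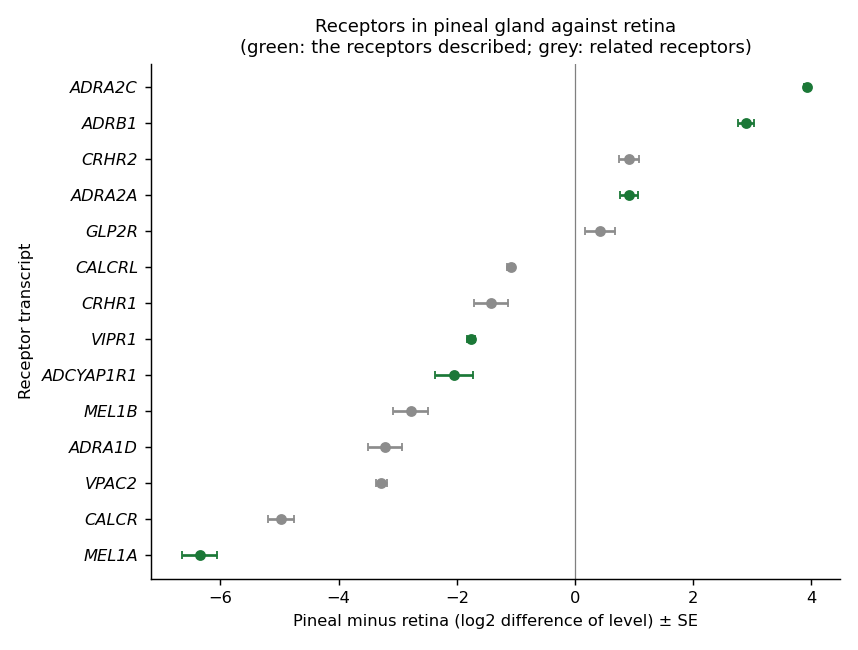
Difference between pineal gland and retina (x axis, log2 of level, points with SE) for the 6 receptors described (green) and for related adrenergic, class B peptide and melatonin receptors (grey), ordered by size. ADRA2C stands highest at 3.92 and MEL1A lowest at -6.35. MEL1A, MEL1B and CALCR passed the filter on low counts only through the retina, where they are high, so their points are a description. GHRHR is left out because both tissues were at 0 at a sampled time, which leaves its test without an answer.

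The related receptors place these values in their families. A transcript named VPAC2 in the deposited table (ENSGALT00000010623), whose RefSeq identifier belongs to the gene that RefSeq calls VIPR2, encodes the other receptor shared by VIP and PACAP. It was at 1.17 to 5.39 CPM in pineal and 24.9 to 37 CPM in retina libraries, a log2 difference of -3.28 ± 0.09, 9.71-fold, at an adjusted p of 3.6e-23 in edgeR's quasi-likelihood test. Per transcript length it was the most abundant receptor named here in the retina after CALCRL, at 17.6 FPKM against 21.3 FPKM. Its 24 h curve in the pineal gland had an adjusted p of 0.162, with 2.22 to 2.4 CPM at CT8 and 3.53 to 5.39 CPM at CT4.

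Of 9 adrenergic receptors listed 8 were found and 5 tested, and all 5 differed between the tissues, 3 higher in the pineal gland and 2 lower, beside 82.7% of all transcripts tested. Among the lower was ADRA1D, an alpha-1 receptor that couples to phospholipase C, at -3.21 ± 0.29 in log2 units. Its 18 of 18 pineal libraries were below every retina library, which held for 20.3% of all transcripts tested. ADRA1A, ADRA1B and ADRA2B were too low to test, with 10, 35 and 39 counts over the pineal libraries and 6, 38 and 8 over the retina libraries. The pineal libraries had 1552 counts of ADRB1 in all, beside 27312 of ADRA2C.

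Of 13 class B receptors listed 12 were found and 7 passed the filter within each tissue. Of those 7, 6 differed between the tissues, 5 lower and 1 higher in the pineal gland, beside 82.7% of all transcripts tested, and GLP2R did not pass the test. CALCR and GHRHR passed the filter only through the retina, and GHRHR had no answer. The higher one was CRHR2, a receptor for urocortins, at 0.92 ± 0.17 in log2 units. Among the lower ones, the log2 difference was -1.09 ± 0.06 for CALCRL, which forms the CGRP and adrenomedullin receptors, and -1.42 ± 0.29 for CRHR1, a receptor for corticotropin-releasing hormone. CALCR, the calcitonin receptor, had 43 counts over the pineal libraries and 1170 over the retina libraries. Between night and day in the pineal gland, 1 of 7 class B receptors tested was called, beside 15% of all transcripts, and that 1 was VIPR1, whose call was lost in 13 of 18 removals of a single library. Of 6 melatonin receptor names listed 2 were found, MEL1A and MEL1B, and both passed the filter only through the retina. MEL1B had 30 counts over the pineal libraries and 163 over the retina libraries.

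The ligands were expressed unevenly. VIP had 36 counts over the pineal libraries and 1884 over the retina libraries (16.1 ± 2.99 CPM, n = 18), and ADCYAP1, which encodes PACAP, had 24 and 336. TH and DBH, enzymes of dopamine and noradrenaline synthesis, had 2 and 13 counts in the pineal gland. RNA of the nerve cells that supply noradrenaline to the gland lies in ganglia outside it and was not sampled. SLC6A2, the noradrenaline transporter, was at 1.83 to 11 CPM in pineal libraries with a 24 h amplitude of 0.87 ± 0.16 in log2 units, a fitted peak at CT2.24 ± 0.7 h and an adjusted p of 1.0e-03 in edgeR's quasi-likelihood test. It passed the filter only through the pineal gland. AANAT, the enzyme that sets the nightly pace of melatonin synthesis, had a pineal amplitude of 0.98 ± 0.12 with a peak at CT16.58 ± 0.49 h, beside the ADRA2C peak at CT6.74. In the list of ligands and monoamine supply, 6 of 8 tested passed the 24 h test in the pineal gland, beside 21.1% of all transcripts, and 2 of 10 in the retina, beside 6.29%. DDC, the decarboxylase that makes dopamine and serotonin, had the smallest p of the list in the pineal gland, with an amplitude of 1.05 ± 0.11 in log2 units and a peak at CT13.9 ± 0.39 h. ASMT, the last enzyme of melatonin synthesis, had 0.51 ± 0.06 with a peak at CT4.1 ± 0.47 h. Both were higher in the pineal gland than in the retina, by 3.90 ± 0.05 and 5.61 ± 0.06 in log2 units, as was MAOB, a monoamine oxidase, by 4.97 ± 0.11.

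Downstream of the receptors, 3 of 14 G protein subunits tested passed the 24 h test in the pineal gland, a share close to the 21.1% of all transcripts. They were GNB1 (amplitude 0.24 ± 0.02 in log2 units, peak at CT13.53), GNG2 (0.24 ± 0.03, CT17.13) and a transcript named GNAI3 (ENSGALT00000013655) that RefSeq calls GNAI1. The adjusted p of this last one was 0.0406 in edgeR's quasi-likelihood test, and its call was lost in 9 of 18 removals of a single library (adjusted p 0.0544 to 0.0893) and under 3 of 11 other settings. Those 3 were both tissues in 1 fit, and leaving out the pineal libraries high in GAD67 or those low in TTR. Of the 15 receptor kinases, RGS and RAMP proteins tested, 6 passed, beside the same 21.1%. Arrestins were listed with them, but none was found by name. GRK5, a kinase that phosphorylates active receptors, peaked at CT13.65 ± 0.39 h with an amplitude of 0.45 ± 0.05, and ADRBK2, a kinase of the same family, at CT1.08 ± 0.6 h with 0.36 ± 0.06. RGS20 and RGS7, which speed the shut-off of G proteins, peaked at CT3.03 and CT14.42 with amplitudes of 0.40 ± 0.05 and 0.83 ± 0.11. The adjusted p of GNB1, GNG2 and these 4 ran from 2.4e-07 (GNB1) to 2.2e-04 (ADRBK2) in edgeR's quasi-likelihood test. In the retina 2 of 12 G protein subunits and 3 of 14 kinases, RGS and RAMP proteins tested passed, beside 6.29% of all transcripts.

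Transcripts with the pineal pattern most like that of ADRA2C over the 18 libraries were PTCHD1 (Pearson r = 0.92), SYT15 (0.91) and RGR (0.91), and those most like ADRA2A were PTS (0.88), MOGAT1 (0.88) and OSBPL9 (0.87). For each receptor these were the 3 highest of 11621 named transcripts whose mean reached 5 CPM. The fitted peaks were at CT6.66, CT5.94 and CT6.99 for the first 3 and at CT12.26, CT11.93 and CT13.39 for the others. These correlations describe libraries that share depth, time and tissue, and are given without a test.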

How the data were processed

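RNA was prepared with TRIzol and RNeasy and sequenced from Illumina libraries, per the labels' protocols. Per the submitters' processing notes, Trimmomatic, TopHat and Cufflinks were used; their versions and roles, the genome build and the use of strand are not given in the sources used here, and antisense genes that overlap cannot be separated. The authors deposited estimated counts per Ensembl transcript (68.1% of values whole), in which reads shared by transcripts were assigned by estimation, and FPKM values, scaled by transcript length and depth. FPKM served to compare levels between genes and as an alternative.

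Groups came from the labels. Rounded counts were analysed with edgeR 4.0.16 (TMM, filterByExpr with a minimum count of 10, quasi-likelihood F tests, Benjamini-Hochberg over all tested transcripts, threshold 0.05). DESeq2 1.42.0 and limma 3.58.1 were alternatives, under R 4.3.3, and plots used Python 3.11.15. Rhythm was tested as 2 coefficients, cosine and sine of 24 h, and its difference between tissues as their interaction with tissue. Night minus day and pineal minus retina were contrasts of group means. The SE of a contrast was taken from its F. Amplitude and peak were fitted by least squares to log2 CPM (prior count 2), with delta-method SEs. CPM levels use TMM over all 36 libraries. A contrast has no answer where both sides are at 0 at a time, which touched 156 of 16831 transcripts between tissues, 34 in pineal and 42 in retina night minus day, none of the 8 receptor transcripts taken by name, and GHRHR among the related ones. Scripts were tested on simulated data, with 100 changed transcripts per setting drawn from all tested. For 1.5-fold and 2-fold ranges, the 24 h test recovered 41% and 49% in pineal and 36% and 68% in retina data. The interaction test recovered 11% and 47%. A missed call therefore does not show that a rhythm or a difference is absent.

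Alternatives were other size factors, no filter, DESeq2, limma on log2(FPKM + 0.1 or 1), counts per gene, time as a 6-level factor, wider night and day, both tissues in 1 fit, a replicate block, each library left out, and the pineal libraries low in TTR or, chosen after seeing the data, high in GAD67 left out. Over 36 pairs of replicates, chi-square per degree of freedom was 4.64 to 29.9, so no pair looked like repeats of 1 library. The receptors, lists and tests were chosen with earlier results of these data known. Described are all transcripts of the receptor names, genes from among the up to 4 called members of each list with the smallest p in a comparison, and the 3 most similar patterns of each rhythmic receptor; other list members, GAD67 and TTR were named after their values were seen, and a few list members are not reported here. Where a listed symbol had several transcripts, the one with most counts was used.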

Additional observations from a re-analysis of the deposited data

Results flagged for a closer look

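The daily curve of ADRA2C differed between the tissues, at an adjusted p of 0.00446 in edgeR's quasi-likelihood test of the interaction over all 36 libraries. In the pineal gland the means ran from 156 ± 9.89 CPM at CT20 to 238 ± 20.1 CPM at CT8, and in the retina from 11.6 ± 1.07 CPM at CT16 to 14 ± 0.761 CPM at CT0 (SD, n = 3). The retinal values rest on 60 to 108 counts per library, the pineal ones on 1090 to 1996.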

How the results depend on the processing

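Of 34 receptor results, 31 kept their side of the threshold under every alternative run, and none of the 8 called differences changed sign. Both counts include MEL1A between the tissues, although it passed the filter only through the retina. Most of the 34 results were not called in the main fit, and 6 were called differences between the tissues, so the count says little about daily changes. Of the calls on time of day, those of ADRA2C held under every alternative. The pineal curve of ADRA2A and the night minus day difference of VIPR1 each lost their call under some. Of 9 differences that were not called, 4 changed sign, all between night and day: ADRA2A (-0.05 to 0.39) and ADRB1 (-0.12 to 0.1) in the pineal gland, ADCYAP1R1 (-0.15 to 0.06) and ADRB1 (-0.24 to 0.16) in the retina. The exceptions were the pineal curves of ADRA2A (adjusted p 0.00246 to 0.122) and VIPR1 (called by DESeq2 at 0.0252, with both tissues in 1 fit at 0.00539, with counts per gene at 0.0454 and without the libraries high in GAD67 at 0.0467, and without CT0 replicate 2 or CT4 replicate 1 at 0.0324 to 0.0479), and the night minus day difference of VIPR1 (0.0522 with DESeq2 size factors, 0.078 and 0.065 with limma on FPKM at pseudocounts of 0.1 and 1, 0.0739 with no filter, 0.0526 with the replicate block and 0.0835 without the libraries low in TTR). The cause of these was not tested. Within each tissue, same-numbered libraries did not deviate together. Their correlations were -0.06 to 0.26 in the pineal gland and -0.07 to 0.07 in the retina, with medians of 0. In each tissue 7 of 18 libraries were closest to their own number. Whether pineal and retina libraries of the same time and number share birds was not tested, and the tissue contrasts treat them as unpaired. With the replicate block VIPR1 differed by 0.44 between night and day and lost its call, while ADRA2C differed by -0.52 and kept it. No receptor call other than that of VIPR1 changed with the block. The MEL1A tissue difference was -2.77 with limma at a pseudocount of 1, which shrinks differences at low levels by construction. Limma on FPKM called 43% of changed pineal transcripts higher at night, against 55.7%, and put the median tissue difference of all transcripts at 0.22 and 0.18, against 0.04. Retinal calls were 515 with time as a 6-level factor, against 941 for the 24 h curve, and 186 with counts per gene, 280 with DESeq2 and 370 when CT12 was added to night and CT0 to day, against 114 between night and day. Leaving out any 1 library kept each of the 6 counts of called transcripts within 1.5 times. Of 67 results for other genes of the lists, 54 kept their side of the threshold under every alternative run. With no filter, MEL1A in the pineal gland had an adjusted p of 0.858 for the 24 h curve and 0.658 for night minus day. Counts of 5 to 66 per library limit ADRA2A, and 8 counts in all limit pineal MEL1A.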
